A study of Rattus norvegicus with 22 samples.

Results

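The genes of the contractile apparatus of striated muscle, without the myosin heavy chains, were followed in oral squamous cell carcinoma (OSCC) of the rat tongue. The list holds 45 genes that encode proteins of the thin filament, the fast and slow troponins, the myosin light chains, the thick filament and M-band, the Z-disc, the machinery of calcium release and reuptake, and muscle creatine kinase. A gene was found where the array's gene name equalled its symbol, and the probe that was brightest over all 22 arrays stood for it. In this way 42 of the 45 genes were measured, among 26583 gene names on the array; Neb, Ryr1 and Tcap were not found by symbol and are not analysed here. Of the 42 genes, 38 were well above background on all 22 arrays, no array was saturated at any of their probes, and no value was missing. Titin (Ttn) and junctophilin 1 (Jph1) were well above background on 1 OSCC array each and on no normal array, and no fold is given for them.

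From each of 11 male F344 rats an OSCC and a neighboring, phenotypically normal area of the tongue were measured. All rats had received the carcinogen 4-nitroquinoline-1-oxide (4-NQO) in drinking water at 20 ppm for 10 weeks, and tissue was taken 23 to 26 weeks after the first exposure, at an age of about 33 weeks. The sample titles carry the word Untreated on the arrays of both tissues, and the labels give the normal pieces the treatment "none", although the protocol takes both tissues from the same 4-NQO-treated rats. The normal group is therefore carcinogen-exposed tongue that looked normal, and no tongue of an unexposed rat was analysed here. Rats are named by the animal numbers of the labels, which are 4, 9, 11, 13, 16, 17, 21, 22, 24, 25 and 26.

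The body of the tongue is skeletal muscle under a stratified epithelium. In a sarcomere, calcium released from the sarcoplasmic reticulum binds troponin C, the troponin complex then moves tropomyosin on the actin filament, and myosin can pull. Fast-twitch and slow-twitch fibers build the same machine from different gene copies, so that most of its parts exist as a fast and a slow isoform. The slow isoforms of troponin C, the myosin light chains and the calcium pump are also used by the heart.

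On these single-color arrays the array's 75th percentile signal ran from 236.8 to 654.9 in normal tissue and from 338.7 to 1414 in OSCC. A log2 level is the log2 processed signal of a probe minus the log2 75th percentile of its array, so that a level of 0 equals that percentile. Levels of different probes are not compared with each other. A gene was called when limma's paired model gave a Benjamini-Hochberg adjusted p under 0.05 over all 30367 probes and the difference was at least 2-fold. Differences are given as OSCC minus normal, and their median over all probes was -0.24 log2 units. A first scan day covered all normal arrays and the OSCC arrays of animals 4 and 9, and a later one the remaining 9 OSCC arrays, so that tissue and scan day can be told apart only through those pairs. No slide held both tissues.

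In the stretch read by their probes, the fast and slow troponin C genes resemble each other closely, although they moved in opposite directions. The probe for Tnnc2, the fast isoform, lies at chr3:155807460-155807519 on the minus strand of rn4, and the probe for Tnnc1, the slow isoform, at chr16:6642153-6642212 on the plus strand. Both lie in matching stretches of the messages, shifted by 1 base, and over the 59 bases that align 48 were identical and 11 differed. The bases that differ are in capitals.
Tnnc2 probe: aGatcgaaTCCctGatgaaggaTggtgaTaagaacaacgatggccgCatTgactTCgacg
Tnnc1 probe: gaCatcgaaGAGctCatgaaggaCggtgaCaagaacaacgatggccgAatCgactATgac

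Across the 42 genes the larger part of the contractile program was lower in OSCC, while a small group of slow isoforms was higher. In OSCC 27 of the 42 genes were called lower, a share far above the 6.97% of all probes. Only 4 of the 42 were called higher, a share close to the 6.86% of all probes, so their number does not set the list apart. The remaining 11 were not called, 3 of them with an adjusted p under 0.05 but a difference under 2-fold. The median difference over the 42 genes was -1.65 log2 units, beside -0.24 over all probes. The 4 genes that rose were Tnnc1, Tnnt1, Tnni1 and Myl2. These are bulk tissue pieces, in which fewer muscle fibers and less RNA per fiber cannot be told apart.

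**Figure D1:**
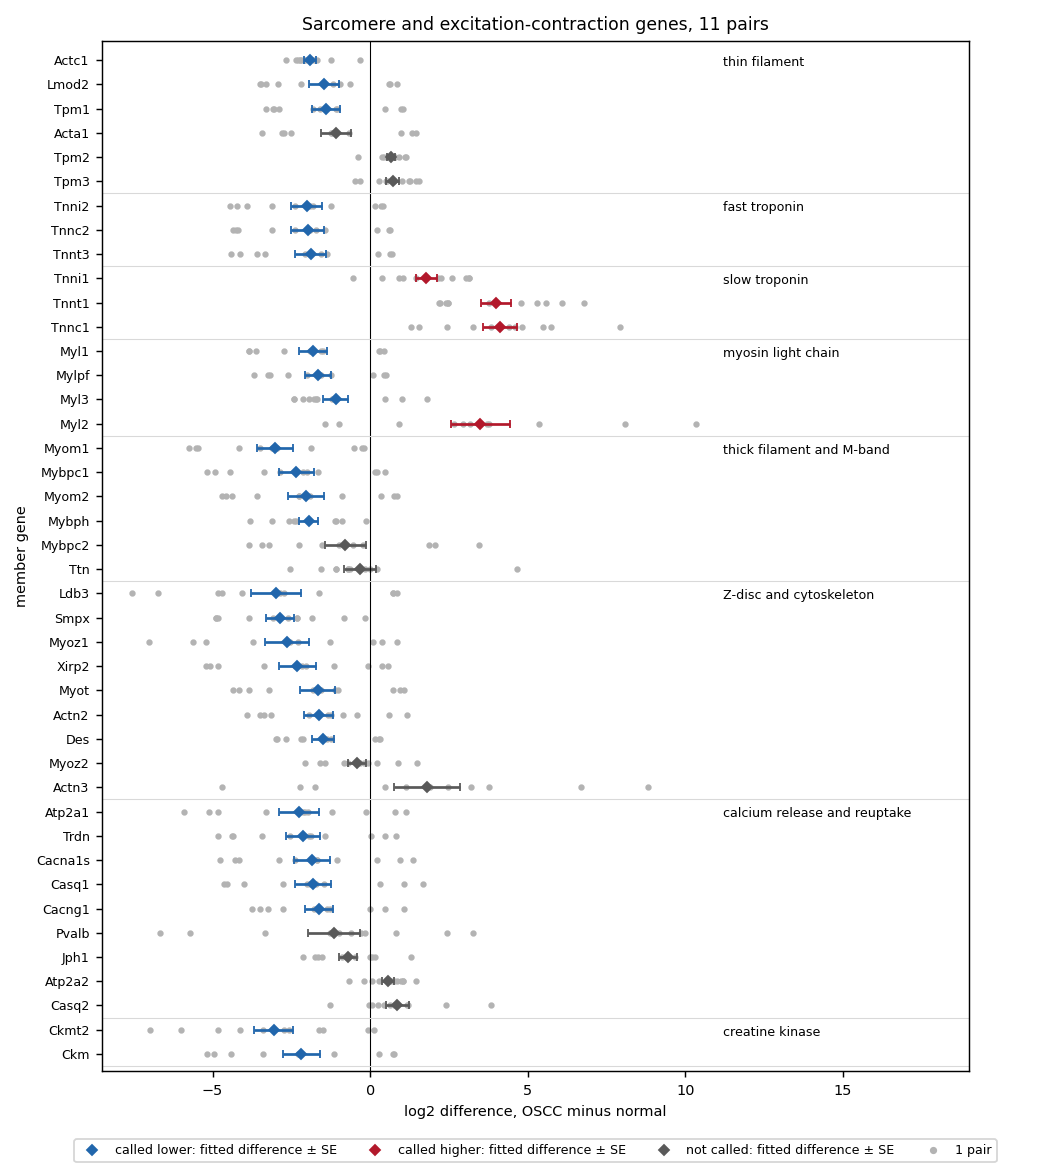
Log2 difference, OSCC minus normal, of the 42 measured genes (rows, by role). Gray dots are the 11 pairs, diamonds the fitted differences with their standard errors. The slow troponins and Myl2 stand to the right of 0, and the other 27 called genes to the left.

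The fast troponins form the calcium switch of fast fibers, with Tnnc2 as the calcium sensor, Tnni2 as the inhibitory subunit and Tnnt3 as the subunit that holds the complex to tropomyosin. All 3 fell. The probe of Tnni2 lies at chr1:202690056-202690115 and that of Tnnt3 at chr1:202758664-202758723, both on the plus strand of rn4. The log2 level of Tnnc2 was 7.55 at the lowest, 8.28 at the median and 8.58 at the highest in normal tissue, and 3.50, 6.02 and 8.82 in OSCC. The level of Tnni2 ran from 7.38 through a median of 8.0 to 8.29 in normal tissue and from 3.57 through 5.76 to 8.34 in OSCC. That of Tnnt3 ran from 6.75 through 7.58 to 8.12 in normal tissue and from 3.21 through 5.46 to 8.27 in OSCC. Normal pieces were thus close together and OSCC pieces were spread over several log2 units, with the tissues overlapping for each gene. The fitted differences were -1.99 ± 0.51 (SE, n = 11) for Tnnc2, -2.01 ± 0.49 for Tnni2 and -1.89 ± 0.50 for Tnnt3, which is 3.98-, 4.03- and 3.72-fold lower, with limma adjusted p = 0.0103, 0.00765 and 0.0119.

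The slow troponins moved the other way. The probes of Tnnt1 and Tnni1 lie at chr1:68045083-68045142 and chr13:48840073-48840132 on the plus strand of rn4. Tnnc1, the slow calcium sensor, had a log2 level of -5.67, -3.03 and -1.71 (lowest, median, highest) in normal tissue and of -1.72, 1.25 and 2.41 in OSCC, and it was well above background on 6 of 11 normal arrays and on all 11 OSCC arrays. Tnnt1, the slow tropomyosin-binding subunit, had -3.28, -1.94 and 0.86 in normal tissue and 0.69, 2.40 and 3.61 in OSCC. Tnni1, the slow inhibitory subunit, had -0.95, 0.11 and 1.23 in normal tissue and 0.13, 2.19 and 2.83 in OSCC. Here most OSCC pieces lay above most normal pieces, and the overlap came from the ends of the ranges. Tnnt1 rose by 4.00 ± 0.48 log2 units (SE, n = 11), 16.1-fold, with limma adjusted p = 0.00021. Tnnc1 rose by 4.12 ± 0.53 (adjusted p = 0.000308), and since its values on 5 normal arrays were not well above background, no fold is given. With normexp background correction the difference of Tnnc1 was 2.37 (adjusted p = 0.00078). Tnni1 rose by 1.78 ± 0.34, 3.43-fold, with adjusted p = 0.00197. Of the 42 genes, Tnnc1 and Tnnt1 alone were higher in OSCC in all 11 pairs, a share close to the 4.61% of all probes. Tnni1 was higher in 10, the exception being animal 17 with -0.54. A further Tnnt1 probe gave 4.48 ± 0.55.

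**Figure D2:**
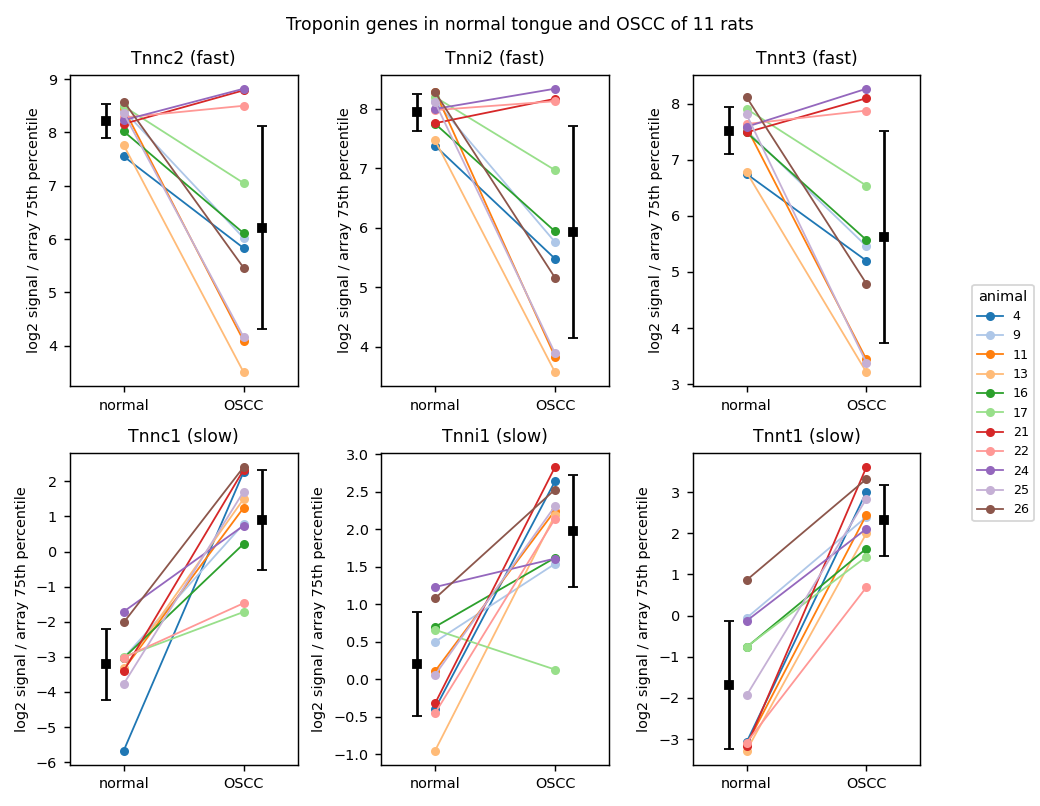
Log2 level of the fast (top) and slow (bottom) troponin genes in normal tissue and OSCC. Each line joins the pieces of 1 rat, and black squares with bars are means ± SD of 11 arrays. Fast troponins lie lower in OSCC in 8 of 11 rats, while Tnnc1 and Tnnt1 lie higher in all 11.

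Within a rat the 3 fast troponins changed almost by the same amount. In animal 11 Tnnc2, Tnni2 and Tnnt3 differed by -4.36, -4.46 and -4.14 log2 units between OSCC and normal tissue. In animal 17 they differed by -1.43, -1.23 and -1.37, and in animal 21 by 0.64, 0.40 and 0.62. The changes thus varied between rats over more than 4 log2 units and within a rat by a fraction of that. The mean of the 3 was -4.32 in animal 11, -4.28 in 25, -3.91 in 13, -3.19 in 26, -2.28 in 9, -1.88 in 16, -1.72 in 4 and -1.34 in 17. It was 0.21 in animal 22, 0.54 in 24 and 0.55 in 21.

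The same division of rats ran through many genes of the list, but not through all. Actc1, Mybph, Myom1 and Smpx were lower in all 11 pairs, whereas Tpm3 and Atp2a2 were lower only in animals 22 and 24. In each of animals 4, 9, 11, 13, 16, 17, 25 and 26, 33 or 34 of the 42 genes were lower in OSCC. All 27 genes called lower were among them, but the calls themselves drew on these rats. In animals 21, 22 and 24, 35, 29 and 34 of the 42 genes were instead higher in OSCC, and 21, 20 and 22 of the 27 were. The counts out of 42 include genes, such as Tnnc1 and Tnnt1, that were higher in the other rats too. The median difference over the 42 genes was 0.70, 0.24 and 0.60 in animals 21, 22 and 24, and between -3.82 and -1.15 in the other 8. The slow troponins were higher on either side of this division. Their mean difference was 5.22 in animal 21, 2.64 in 22 and 1.69 in 24, and it ran from 0.98 in animal 17 to 5.69 in animal 4 among the others. These means include Tnnc1, which was well above background on only 6 of 11 normal arrays. No test was run between animals 21, 22 and 24 and the other rats, since they are set apart by the measured outcome itself.

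**Figure D3:**
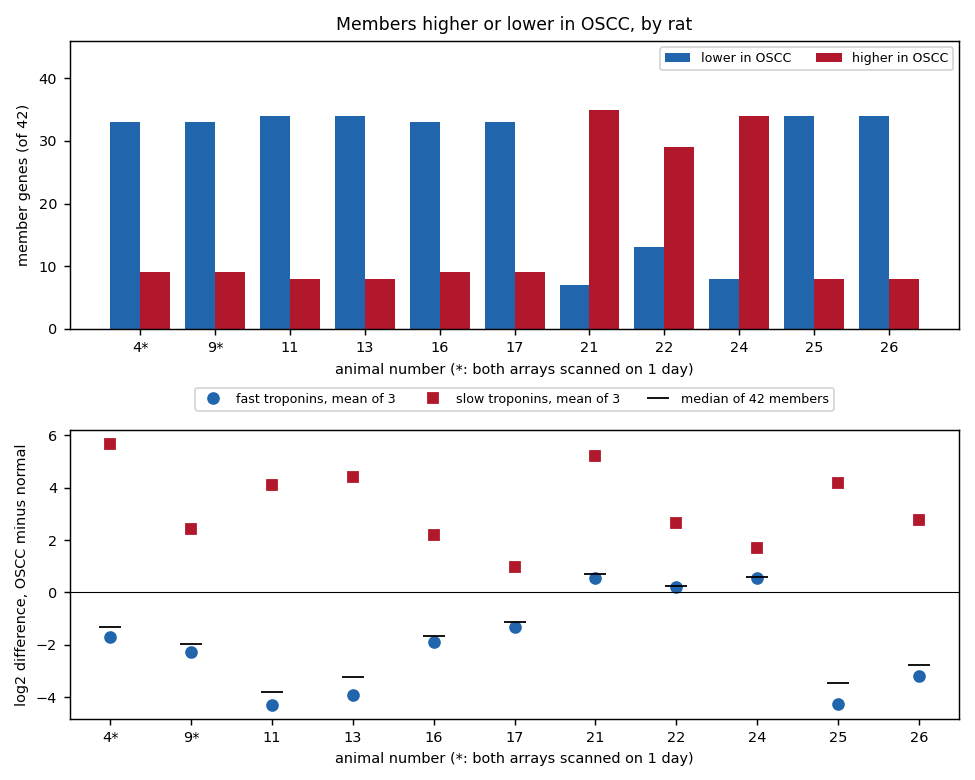
Top, number of the 42 genes lower and higher in OSCC in each rat. Bottom, mean log2 difference of the fast and of the slow troponins, with the median of the 42 genes. Animals 21, 22 and 24 stand near or above 0 for the fast troponins, and slow troponins are above 0 in all rats.

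These genes were spread more widely over the OSCC pieces than over the normal ones. The SD over the 11 OSCC arrays exceeded that over the 11 normal arrays for 40 of 42 genes, with median SDs of 1.70 and 0.35 log2 units. Over all probes the median SDs were 0.63 and 0.37. None of the 42 genes separated the tissues with every OSCC array below every normal array, which 0.978% of all probes did, or with every OSCC array above, which 0.668% did.

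To compare isoforms directly, the change of the slow isoform was subtracted from that of its fast counterpart in each rat and the mean was tested by an exact two-sided sign-flip test over the 11 pairs, adjusted over 11 isoform pairs. With 11 pairs the smallest p this test can give is 0.000977. Since both isoforms are read on 1 array, a scaling factor of the array does not enter. Troponin C gave a mean of -6.12 ± 0.95 log2 units (SE, n = 11), troponin T -5.90 ± 0.81 and troponin I -3.79 ± 0.71. All 3 were negative in 11 of 11 rats and had the smallest p, adjusted p = 0.00215 (exact test). With normexp background correction the mean of troponin C was -4.45. Animals 21, 22 and 24 were no exception, with means over the 3 families of -4.67, -2.43 and -1.15. The difference in animal 24 for troponin I was only -0.03.

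The regulatory light chain, which binds the neck of the myosin head, followed the troponins. Mylpf, the fast form, was at 7.60, 8.16 and 8.38 (lowest, median, highest log2 level) in normal tissue and at 4.61, 6.12 and 8.58 in OSCC, and fell by 1.66 ± 0.41 (adjusted p = 0.00814). Myl2, the slow form, which is also the light chain of the heart ventricle, was at -5.98, -4.26 and 1.63 in normal tissue and at -3.89, -0.29 and 4.80 in OSCC. It rose by 3.50 ± 0.95 (adjusted p = 0.0131), was well above background on 5 of 11 normal arrays and on all OSCC arrays, and was higher in 9 of 11 pairs. Single rats ran from -1.44 in animal 9 and -1.0 in animal 26 to 8.10 in animal 24 and 10.33 in animal 21. The fast minus slow difference was -5.16 ± 0.80 and negative in 11 of 11 rats, with adjusted p = 0.00215 (exact test). With normexp background correction Myl2 differed by 1.83 and was not called (adjusted p = 0.16), and the fast minus slow difference was -3.44.

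The essential light chain did not share this contrast to the same degree. Myl1, the fast form, was at 6.03, 6.63 and 6.91 in normal tissue and 2.27, 4.54 and 7.03 in OSCC, and fell by 1.81 ± 0.44 (adjusted p = 0.00794). Myl3, the form of slow fibers and the ventricle, fell too, by 1.10 ± 0.40 (adjusted p = 0.0443). It was higher in animals 21, 22 and 24, by 1.79, 1.02 and 0.48, and lower in the other 8 rats. Their difference was -0.71 ± 0.31, negative in 8 of 11 rats, with exact p = 0.0498 and the same value after adjustment, and it missed the threshold under 12 alternatives. The slow light chains thus parted from each other, Myl2 being called higher and Myl3 lower, and Myl3 lost its call under most alternatives.

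In calcium handling, Atp2a1, the pump that returns calcium to the reticulum in fast fibers, was at 7.18, 7.87 and 8.20 in normal tissue and 1.71, 5.44 and 8.65 in OSCC. It fell by 2.25 ± 0.64 (4.76-fold, adjusted p = 0.0166). Atp2a2, the pump of slow fibers, the heart and, as another splice form, most other cells, differed by 0.57 ± 0.19 (adjusted p = 0.0299), under 2-fold, and its second probe by -0.30 ± 0.14 (adjusted p = 0.102), so that the direction depended on the probe. Casq1, the calcium store protein of fast fibers, fell by 1.82 ± 0.58 (adjusted p = 0.0273), a call lost without animal 9, 11, 13, 25 or 26. Casq2, its slow and cardiac counterpart, was at -3.57, -1.60 and -0.54 in normal tissue and -2.37, -0.69 and 0.27 in OSCC, with a difference of 0.86 ± 0.37 that was not called (adjusted p = 0.073). The fast minus slow difference was -2.82 ± 0.88 for the pumps and -2.68 ± 0.83 for the calsequestrins, both with adjusted p = 0.0143 (exact test). The pump difference was positive in animals 21, 22 and 24 and the calsequestrin difference in animals 21 and 24.

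Triadin (Trdn), which ties calsequestrin to the release channel, fell by 2.13 ± 0.54. Cacna1s, the voltage sensor that starts release, fell by 1.85 ± 0.57, and Cacng1, a subunit of that channel, by 1.63 ± 0.44. The call of Cacna1s was lost without the same animals as that of Casq1. Further probes of Trdn, Casq1 and Cacng1 were called lower as well. Parvalbumin (Pvalb), the soluble calcium buffer of the fastest fibers, was at 2.99, 4.59 and 5.63 in normal tissue and at -1.29, 3.52 and 7.84 in OSCC. Its difference of -1.14 ± 0.83 was not called (adjusted p = 0.262), and single rats ran from -6.66 in animal 11 to 3.25 in animal 21. Calcium release and reuptake thus counted 5 of 9 measured genes called lower and none higher, beside 6.97% and 6.86% of all probes.

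The Z-disc anchors the thin filaments of neighboring sarcomeres, and 7 of its 9 measured genes were called lower, beside 6.97% of all probes. Ldb3, the PDZ-LIM protein that binds alpha-actinin, was at 3.69, 4.06 and 5.10 in normal tissue and at -3.87, 1.61 and 4.88 in OSCC. It had the largest fall of the group, 2.98 ± 0.79 (7.91-fold, adjusted p = 0.012), and fell furthest in animal 13, by 7.56. Smpx, a small protein of the muscle membrane cytoskeleton, fell by 2.87 ± 0.44 (adjusted p = 0.000667) and was lower in all 11 pairs, animals 21, 22 and 24 included at -1.84, -0.18 and -0.82. Myoz1, the calcineurin-binding myozenin of fast fibers, fell by 2.64 ± 0.70, and Xirp2, an actin-binding Xin-repeat protein, by 2.31 ± 0.58. Myot, Actn2 and desmin (Des) fell by 1.67, 1.64 and 1.49, and the call of Myot was lost without animal 9, 11, 13, 25 or 26. Myoz2, the slow and cardiac myozenin, was not called (-0.42 ± 0.29), and the fast minus slow difference of the myozenins was -2.22 ± 0.50, negative in 10 of 11 rats (exact test, adjusted p = 0.0046).

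Actn3, the alpha-actinin confined to fast fibers, stood apart from the other fast genes. Its level was -0.94, 0.08 and 1.85 in normal tissue and -3.55, 2.42 and 8.19 in OSCC. The difference of 1.80 ± 1.05 was not called (adjusted p = 0.17) and had the widest spread among rats of any Z-disc gene, from -4.70 in animal 11 to 8.83 in animal 21. It was higher in 8 of 11 rats, among them animals 4, 9 and 26, in which the fast troponins were lower. The difference was 1.1 without animal 21 and 2.45 without animal 11. Without animals 21, 22 and 24, which were set apart by the measured outcome, it was 0.14. Against Actn2, which all fibers use, its change was larger by 3.44 ± 0.88, in 10 of 11 rats (exact test, adjusted p = 0.0046).

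**Figure D4:**
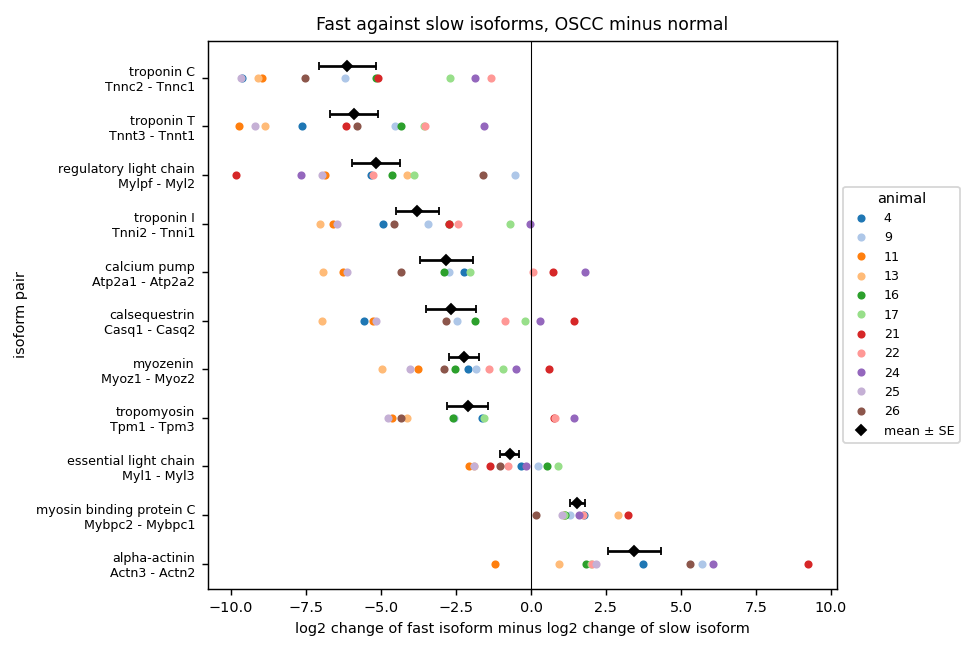
Change of the fast isoform minus change of the slow isoform (log2, OSCC minus normal) for 11 isoform pairs. Actn2 and Mybpc1, set in the place of the slow isoform, are also expressed by fast fibers. Dots are the 11 rats, diamonds mean ± SE. The troponins and the regulatory light chain lie below 0 in every rat, while myosin binding protein C lies above 0 in every rat and alpha-actinin in 10 of 11.

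In the thick filament and M-band, 4 of 6 measured genes were called lower, beside 6.97% of all probes. Myom1, the cross-bridge protein of the M-band, was at 3.77, 4.13 and 4.64 in normal tissue and at -1.75, 0.92 and 4.19 in OSCC. It fell by 3.03 ± 0.57 (8.15-fold, adjusted p = 0.00189) and was lower in all 11 pairs. Myom2 fell by 2.05 ± 0.57. Mybph, a relative of myosin binding protein C, fell by 1.95 ± 0.30 (adjusted p = 0.000653), also in all 11 pairs. Lower values in all pairs, seen for Myom1, Mybph, Smpx and Actc1, held for 5.25% of all probes.

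Myosin binding protein C, a regulator of cross-bridge cycling, ran, like alpha-actinin, against the other families. Mybpc1, named the slow form although fast fibers also express it, fell by 2.35 ± 0.55 (adjusted p = 0.00639). Mybpc2, the fast form, was at 1.31, 2.71 and 3.78 in normal tissue and at -1.24, 1.72 and 5.74 in OSCC, with -0.79 ± 0.65, not called (adjusted p = 0.324). The change of the fast form lay above that of the slow one in 11 of 11 rats, by 1.55 ± 0.26 (exact test, adjusted p = 0.00215). In animals 21, 22 and 24 Mybpc2 was higher in OSCC by 3.45, 1.87 and 2.05.

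In the thin filament, cardiac alpha-actin (Actc1), an embryonic form that adult skeletal muscle keeps at a low rate, was at 4.43, 4.91 and 5.25 in normal tissue and at 2.23, 2.79 and 4.61 in OSCC. It fell by 1.90 ± 0.19 (3.73-fold, adjusted p = 0.000108) in all 11 pairs, by 2.06 in animal 21 and 2.34 in animal 24, in which the fast troponins were not lower. Skeletal alpha-actin (Acta1), the main actin of adult fibers, differed by -1.09 ± 0.47 and was not called (adjusted p = 0.075). Lmod2, which nucleates actin filaments, fell by 1.46 ± 0.47. Leaving out animal 9, 11, 13, 25 or 26 ended the calls of Lmod2 and Tpm1.

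Among the tropomyosins, Tpm1 fell by 1.40 ± 0.45 (adjusted p = 0.0272) at its brighter probe, at chr8:71339998-71340057 on the minus strand of rn4, whereas its second probe, at chr8:71331669-71331728, differed by 0.58 ± 0.18 (adjusted p = 0.0259). The 2 probes of Tpm1 therefore moved in opposite directions. Tpm3, whose muscle form belongs to slow fibers and whose other forms are found in most cells, was at 1.84, 2.01 and 2.50 in normal tissue and at 1.54, 3.03 and 3.53 in OSCC. Its difference was 0.71 ± 0.20 (adjusted p = 0.0158), and that of Tpm2 was 0.66 ± 0.14 (adjusted p = 0.00324), both under 2-fold. The contrast of Tpm1 with Tpm3 was -2.11 ± 0.69, negative in 8 of 11 rats (exact test, adjusted p = 0.0172). With the median of all probes of a gene in place of the brightest probe, Tpm1 differed by -0.41 and was not called (adjusted p = 0.091), and the contrast was -1.13.

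Creatine kinase regenerates ATP beside the filaments. Ckm, the muscle form in the cytosol, was at 8.22, 8.76 and 9.36 in normal tissue and at 3.05, 6.44 and 9.28 in OSCC, and fell by 2.19 ± 0.59 (4.57-fold, adjusted p = 0.0127). Ckmt2, the mitochondrial form of striated muscle, was at 5.78, 6.45 and 6.89 in normal tissue and at -1.07, 3.32 and 6.57 in OSCC. It fell by 3.06 ± 0.62 (8.36-fold, adjusted p = 0.00275), more than any other gene of the list in the fitted difference. In animal 21 Ckm was higher by 0.77 while Ckmt2 was lower, at -1.62.

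Some slow isoforms varied widely within the normal tissue. The SD over 11 normal arrays was 2.62 for Myl2, 1.55 for Tnnt1 and 1.01 for Tnnc1, the largest of the 42 genes, and 0.26 for Mylpf and 0.32 for Tnnc2. Myl2 and Tnnc1 were well above background on only 5 and 6 of the 11 normal arrays, so that part of their spread lies among values near background. The SD was 0.88 for fast Actn3, and only 0.15 for Atp2a2 and 0.18 for Tpm3, which slow fibers use. In the normal pieces of animals 9, 16, 17 and 26, Myl2 lay at -0.12, -1.52, -1.34 and 1.63, and in the other 7 between -5.98 and -3.95. The same 4 pieces had Tnnt1 at -0.06, -0.77, -0.76 and 0.86, and animal 24 had -0.13, beside -3.28 to -1.94 in the other 6. Myl2 was lower in OSCC only in animals 9 and 26, the rats with the highest normal levels.

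**Figure D5:**
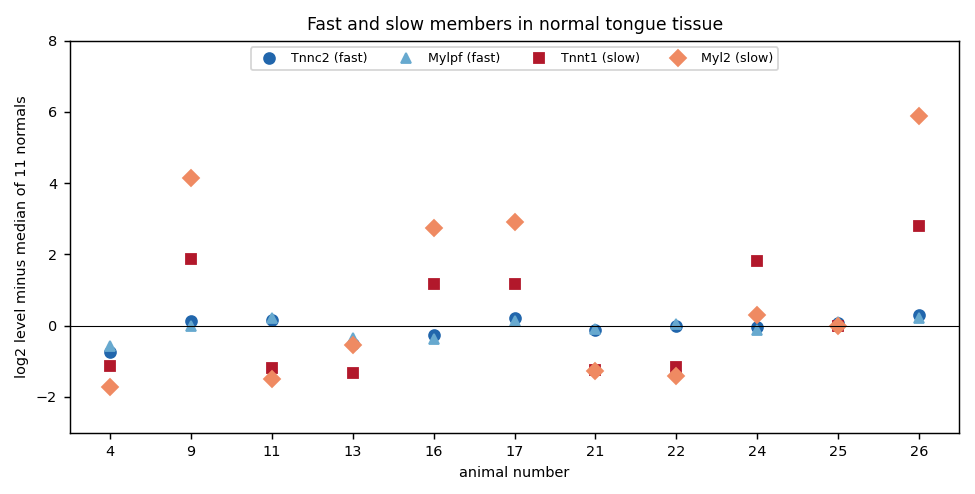
Log2 level in the normal piece of each rat, relative to the median of the 11 normal pieces, for 2 fast (blue) and 2 slow (red, orange) genes. The fast genes stay within 1 log2 unit of the median, and Myl2 reaches several units above it in animals 9, 16, 17 and 26.

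The promoters show which of the motifs that muscle genes are known for stand in front of these members. In the RefSeq table of GRCr8, 36 members had an entry, from 250 bases before the start to 50 after, Mylpf under its current symbol Myl11. Tnnt3, Tnnc1, Myl2, Mybph, Myom2, Tcap, Myot, Cacng1 and Jph1 had none. The E-box CANNTG, the core bound by MyoD and other factors, was in 32 of 36 (88.9%), beside 71.7% of all 27457 promoters. The MEF2 site was in 7 (19.4%) beside 3.37%, and the CArG box, bound by serum response factor, in 4 (11.1%) beside 1.64%. The TATA box TATAAA, searched on both strands, was in 5 (13.9%) beside 14.3%. The other 3 motifs read the same on either strand, and matches of different motifs may overlap. Members with a MEF2 site were Casq2, Myl1, Myoz1, Myoz2, Smpx, Ttn and Xirp2, and those with a CArG box Acta1, Actc1, Ldb3 and Myl3, so that either motif stood before genes that fell and genes that were not called.

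The 250 bases before the start are printed for the fast and slow troponin I genes, which moved in opposite directions, and for Myl1, which fell and holds a MEF2 site. They lie in GRCr8 at chr1:207024240-207024489 (plus strand) for Tnni2, chr13:49781279-49781528 (plus strand) for Tnni1 and chr9:75897800-75898049 (minus strand) for Myl1. Capitals mark E-boxes in all 3, the TATA box on the opposite strand in Tnni2, and the MEF2 site, which comes first, in Myl1.
Tnni2 promoter: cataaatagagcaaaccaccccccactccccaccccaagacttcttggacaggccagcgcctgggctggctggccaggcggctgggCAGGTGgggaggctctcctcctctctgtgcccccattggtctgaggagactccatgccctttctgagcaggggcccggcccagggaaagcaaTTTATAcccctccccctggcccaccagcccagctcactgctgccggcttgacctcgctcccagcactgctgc
Tnni1 promoter: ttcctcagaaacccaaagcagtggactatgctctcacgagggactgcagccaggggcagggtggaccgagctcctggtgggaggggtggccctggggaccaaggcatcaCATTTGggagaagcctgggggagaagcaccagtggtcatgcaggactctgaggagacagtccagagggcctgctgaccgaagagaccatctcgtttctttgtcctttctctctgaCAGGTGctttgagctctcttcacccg
Myl1 promoter: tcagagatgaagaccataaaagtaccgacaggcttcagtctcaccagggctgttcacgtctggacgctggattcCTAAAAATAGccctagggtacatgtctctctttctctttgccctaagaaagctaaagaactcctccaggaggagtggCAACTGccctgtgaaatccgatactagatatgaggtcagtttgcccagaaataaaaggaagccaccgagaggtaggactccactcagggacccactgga

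Other genes of the sarcomere and the triad moved with the list. Of 33 further genes 26 were measured, 20 were called lower and 1 higher, with a median difference of -1.72. Over all probes 6.97% were called lower and 6.86% higher, with a median of -0.24. The largest falls among the 26 were those of Myom3 (-2.96 ± 0.53), Nrap (-2.81 ± 0.59), which helps to assemble myofibrils, and sarcolipin (Sln, -2.81 ± 0.46), an inhibitor of the calcium pump. Myom3 was well above background on only 6 of 11 OSCC arrays, so that its fall rests partly on values near background. The gene that rose was Ankrd2, a stretch-responsive ankyrin protein most abundant in slow fibers, by 2.95 ± 0.33 (adjusted p = 0.000168), in all 11 pairs. Its change ran from 1.27 to 5.12, and like Tnnc1 and Tnnt1 it was higher in every rat, as were 4.61% of all probes.

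Muscle markers outside the list gave the fiber types another reading. Myh4, the heavy chain of the fastest fibers, was called lower (-4.47 ± 0.95) and so was myoglobin (Mb, -2.43 ± 0.50). Myh2 was called higher (2.17 ± 0.73), Myh1 was not called (-0.74 ± 0.51), and Myh7, the slow heavy chain, was well above background on no normal array and on 9 OSCC arrays, at least 5.40-fold higher (adjusted p = 0.00081). Since Tnnc1, Myl2 and Myl3 are heart genes too, cardiac markers were read beside them. Tnni3, Mybpc3, Myl7 and Nppa were well above background on none of the 22 arrays, Myh6, whose message closely resembles that of Myh7, was at least 6.11-fold higher and Tnnt2 rose by 2.54 ± 0.29, while Pln fell by 1.02 ± 0.31.

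Some markers of other tissue also differed between OSCC and normal pieces, and their part in the results above was not tested. Of all probes, 6.86% were called higher and 6.97% lower. All 5 leukocyte markers were called higher, with a summed log2 level of 0.38 to 1.68 in normal tissue and 1.58 to 3.98 in OSCC, and so were 5 of 6 fibroblast markers, with 5.73 to 6.56 against 5.63 to 8.78. All 4 measured serous gland markers were called higher, with -3.01 to 1.37 against 1.0 to 12.09. Of these, Vegp1, Lipf, Vegp2 and Amy1a were well above background on 2, 3, 4 and 9 of 11 normal arrays. The size of the serous gland differences thus rests partly on normal values near background. Of 5 measured markers of stratified epithelium 1 was called, Dsg3 (1.07 ± 0.39), and the summed level was 8.45 to 9.74 against 7.84 to 9.95, and all 5 were well above background on every array. Of 7 smooth muscle markers 3 were called lower, with 4.60 to 5.52 against 3.91 to 5.48, and none of 4 endothelial markers was called, with 2.43 to 3.06 against 1.46 to 2.87. Median leukocyte and fibroblast differences were smallest in animals 17, 21, 22 and 24, at 0.16, 0.92, 0.08 and 0.77 for leukocytes and -1.12, 0.04, 0.76 and 0.55 for fibroblasts. In the other rats they were 1.55 or more and 1.05 or more. Serous gland and stratified epithelium medians did not divide the rats in this way. The serous gland median was 14.77 in animal 17, 14.67 in 24, 5.46 in 21 and 2.66 in both 25 and 26. That of stratified epithelium was 1.36 in animal 21 and -2.47 in 24.

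Within the single scan day that held both tissues, the pairs of animals 4 and 9 gave mostly the same directions, with the tissues still on different slides. Of all 42 genes, 33 were lower and 9 higher in each rat. All 27 genes called lower were lower in either rat, but the calls themselves drew on these pairs. The 4 genes called higher were all higher in animal 4 and 3 of them in animal 9, Myl2 being the exception. The fast troponins averaged -1.72 and -2.28 and the slow ones 5.69 and 2.44. Among the slow ones is Tnnc1, which was well above background on only 6 of 11 normal arrays. With scan day as a term in the model, the tissue difference of a gene rests on the pairs of animals 4 and 9 alone. That fit is therefore no separate check on the directions. None of the 42 genes was called in it after adjustment. There 41 of 42 had the direction of the main fit, and 4 lower and 4 higher passed 2-fold at an unadjusted p under 0.05. These 8 are 19% of the 42 genes, beside 31.5% of all probes that passed in the same way.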

How the data were processed

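Total RNA of 22 tongue pieces was hybridized to Agilent single-color rat arrays. The intensity values deposited by the authors are the processed, mean and background signals of the Agilent Feature Extraction software, on a linear scale and not scaled between arrays; its other columns, the deposited flags, mark outlier, saturated and dim spots. A ratio table was also deposited by the authors, which gives each processed signal over the 75th percentile of its array. The position of each probe is that of the array annotation, assembly rn4.

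Control spots and 9196 outlier spots were left out, log2 processed signals of a probe's spots were averaged, and the log2 75th percentile over probes was subtracted. The comparison was fitted in limma 3.58.1 (R 4.3.3) with animal and tissue as terms, two-sided, with Benjamini-Hochberg adjustment over 30367 probes. Arrays were paired because both pieces came from the same rat. Deviations of paired arrays from their tissue means correlated across probes by -0.21 to 0.24. Precision is limited by the number of arrays. Code was tested on simulated data.

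The members and gene lists were chosen with earlier results of these data known. All 45 members were accounted for. Values by tissue are given for the 6 troponins and, in each role group, for the member with the largest fall and the one with the smallest fall or largest rise; from the other lists up to 4 called genes are named. Pvalb, Mylpf and further members were added after their values were seen. Alternatives were 5 other scalings or background corrections, a filter on dim probes, outlier spots kept, no pairing, slide and scan day as terms, the methods' t-test, other probe rules, and leaving out animals.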

Additional observations from a re-analysis of the deposited data

How the results depend on the processing

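Of the 31 called members, 24 lost their call only when scan day was a term or when only the 9 pairs scanned on different days were used. The other 7 lost it elsewhere too, namely Cacna1s, Casq1, Lmod2, Myl2, Myl3, Myot and Tpm1. Of these Myl3 lost it under 17 alternatives, and Myl2 only with scan day as a term and with normexp background correction (1.83). With scan day as a term no member was called lower (0) or higher (0), 0 genes of the other lists were called, and 3 of all probes were, where 9578 (31.5%) passed 2-fold at an unadjusted p under 0.05. The median member difference was then -1.68, beside -1.65 without the term. With the term, the tissue difference rests on the pairs of animals 4 and 9 alone. In the pairs scanned on different days 16 members were called lower, and 7 of 11 isoform contrasts passed, those of the calcium pumps, calsequestrins, tropomyosins and essential light chains (adjusted p = 0.051 each) being lost. The cause was not tested. Among all probes 1701 were called with normexp background correction and 6924 without animals 21, 22 and 24, which were set apart by the measured outcome. Pvalb turned to 0.10 with scan day as a term, and Ttn to 0.31 with quantile normalization and to 0.16 in the authors' value table; neither was called. Leaving out 1 animal at a time gave 21 to 28 members called lower and 4 to 5 higher, a median member difference of -1.88 to -1.43, 10 to 11 isoform contrasts, 38 to 47 genes of the other lists and 3649 to 4799 probes. Each of the calls of Cacna1s, Casq1, Lmod2, Myot and Tpm1 was lost without animal 9, 11, 13, 25 or 26, and that of Myl3 without any of these or animal 4, 16 or 17. Acta1 was called lower without animal 21, 22 or 24 and Casq2 higher without animal 17. Without the replicate block 26 members were called lower and 4 higher, Myl3 being the only call lost, and 4227 probes. With slide as a random block 21 were called lower. The median of all probes was -0.24, and -0.03 with quantile normalization, -0.44 with array medians and -0.08 with normexp. Array medians put 32.8% of called probes on the higher side, beside 49.6%, and normexp 40.3%. Ttn and Jph1 are limited by signal near background.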
